A study of Homo sapiens with 12 samples.

Results

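The genes described here are the long non-coding RNAs (lncRNAs) that carry a systematic name. They were chosen by symbol alone: LINC followed by a digit (long intergenic), an ending of -AS or -IT with a digit (antisense or intronic to the gene in the name), or MIR with the ending HG (host gene of a microRNA). The rule found 123 of the 2587 genes in the authors' deposited table, which is 4.75%. They comprise 65 LINC genes, 54 antisense genes, 3 microRNA host genes and 1 intronic transcript, SPRY4-IT1. The 123 genes carry 122 symbols, because LINC00484 is listed under 2 gene IDs (ENSG00000229694 and ENSG00000235641) whose spans overlap.

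The cells were Jurkat, an established human T-cell leukaemia line used as a model of T-cell signalling. Wild-type (WT) cells and cells in which HuR was knocked out (HuRKO) were each left untreated or activated for 24 h with PMA (20 ng/mL) and ionomycin (500 ng/mL), giving 4 groups of 3 libraries made from poly(A) RNA. PMA is a phorbol ester that switches on protein kinase C, and ionomycin is a calcium ionophore. HuR, encoded by ELAVL1, is an RNA-binding protein that recognises U-rich and AU-rich stretches. Whether the knockout cells are 1 clone or a pool is not given in the sources used here, so a difference between genotypes cannot be told apart from a difference between cell isolates. ELAVL1 itself had a level of 4042 normalised counts in resting WT, 596 in resting HuRKO, 2552 in activated WT and 471 in activated HuRKO cells. Its RNA was thus still detected in the knockout, and in the authors' deposited table it was lower in HuRKO cells at rest (log2 -2.76, FDR 2.6e-172) and after activation (log2 -2.44, FDR 1.2e-131).

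An lncRNA is transcribed, spliced and often polyadenylated like an mRNA but is not known to encode a protein. Some act in the nucleus on the transcription of nearby genes, some bind proteins or microRNAs in the cytoplasm, and some serve mainly as the precursor from which a microRNA is cut. Antisense lncRNAs are transcribed from the strand opposite a named gene and often start close to it, so that both can share regulatory DNA. HuR binds many spliced transcripts in the nucleus and cytoplasm and is best known for protecting AU-rich mRNAs from decay.

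For the microRNA host genes the mature products are the best understood part of the transcript. MIR3142HG contains miR-146a, which is induced by NF-kappaB and restrains that pathway by targeting TRAF6 and IRAK1. MIR222HG contains miR-221 and miR-222, known to target the cell cycle inhibitor CDKN1B, and MIR181A2HG contains miR-181a and miR-181b, known for tuning T-cell receptor sensitivity. The mature sequences (RefSeq, GRCh38.p14) are printed 5′ to 3′ to show which products share a target-recognising seed, bases 2 to 8, given in capitals.
hsa-miR-146a-5p in MIR3142HG: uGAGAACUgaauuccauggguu
hsa-miR-3142 in MIR3142HG: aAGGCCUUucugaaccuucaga
hsa-miR-221-3p in MIR222HG: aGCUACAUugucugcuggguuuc
hsa-miR-222-3p in MIR222HG: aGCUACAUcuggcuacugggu
hsa-miR-181a-5p in MIR181A2HG: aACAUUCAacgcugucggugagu
hsa-miR-181b-5p in MIR181A2HG: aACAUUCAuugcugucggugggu
The seed is the same in miR-221-3p and miR-222-3p, and in miR-181a-5p and miR-181b-5p. Mature microRNAs carry no poly(A) tail and were not measured by these libraries, so the values below are those of the host transcripts.

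Levels are group means in normalised counts, rebuilt from the mean over all libraries and the deposited fold changes. Where 4 levels of a gene stand together, their order is resting WT, resting HuRKO, activated WT and activated HuRKO. They are not divided by length, so they are compared between groups of 1 gene and not between genes. No value per library was at hand, so no spread between replicates can be printed. Whether the values of single libraries in different groups overlap is therefore not known. The error enters only through the deposited false discovery rate (FDR). A gene is called higher or lower at an FDR below 0.05. The labels do not state that replicates came from separate cultures. What the FDR reflects is then the spread of these 12 libraries alone, and that spread may be technical. A level under 1 normalised count, or 3 counts over the libraries of a group, is treated as below the floor, and a fold against it is a lower bound. In bulk RNA, fewer cells with a transcript and less of it per cell cannot be told apart.

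MIR3142HG (chromosome 5, 160438594 to 160487426, plus strand, hg38) was close to the floor in resting cells and high after activation. Its level was 1.93 in resting WT, 2.98 in resting HuRKO, 3966 in activated WT and 627 in activated HuRKO cells. Activation thus raised it 2056-fold in WT and 210-fold in HuRKO cells, and the activated level was 6.32-fold lower in HuRKO. Both resting levels were under 3 normalised counts and were not called different (FDR 0.68 in the authors' deposited table). The 2 folds with activation therefore rest on few resting counts. The authors' deposited table gives log2 changes of 11.01 (FDR 3.2e-57) and 7.72 (FDR 2.8e-39) for the 2 activations and of -2.66 (FDR 3.7e-16) for activated HuRKO against WT.

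MIR222HG (chromosome X, 45745211 to 45770274, minus strand) also rose with activation and was lower in HuRKO cells in both states. Its level was 32.1 in resting WT, 17.2 in resting HuRKO, 261 in activated WT and 66.5 in activated HuRKO cells. By the authors' deposited table the difference was -0.90 on the log2 scale at rest (FDR 0.048) and -1.97 after activation (FDR 1.8e-12). The separate MIR221 entry lies inside the same span on the same strand, and its levels of 3.48, 1.74, 16.9 and 4.64 may hold some of the same reads. MIR181A2HG (chromosome 9, 124658467 to 124698631, plus strand) differed from the other host genes. Its level was 6.97 in resting WT, 15.0 in resting HuRKO, 4.39 in activated WT and 24.0 in activated HuRKO cells. It was called only as higher in activated HuRKO than in activated WT cells, 5.47-fold (log2 2.45, FDR 1.0e-04 in the authors' deposited table), and neither activation response was called. Outside the host gene names, the span of GLYCTK-AS1 holds miR-135a on the same strand (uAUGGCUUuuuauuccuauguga for hsa-miR-135a-5p). GLYCTK-AS1, chosen after its values were seen, was at 2.07 in resting HuRKO and 31.0 in activated HuRKO cells and below the floor in both WT groups, so after activation it was at least 31.0-fold higher in HuRKO (log2 6.41, FDR 3.7e-06 in the authors' deposited table).

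The table is a selection, and this bears on every count below. Each listed gene met 2 thresholds, FDR below 0.05 and over 4-fold, in 1 or more of 3 comparisons: HuRKO against WT at rest, HuRKO against WT after activation, or activation in WT cells. No listed gene passed only in activation of HuRKO cells (0 of 2587, against 102, 342 and 348 that passed in 1 of the other comparisons only). Among the named lncRNAs, 17 passed only in the activated comparison of genotypes, 14 only in activation of WT cells and 0 only at rest. The mean level over all groups had a median of 20.1 (range 5.39 to 1150) in the named lncRNAs and of 38.8 over all listed genes. In 27 of the 123 at least 1 group was below the floor, and in 10 both resting groups were. The members lay on 22 chromosomes, most on chromosome 1 (17), with 0 on chromosome Y. Of the 120 found in GENCODE release 29, 115 are annotated there as lncRNAs, LINC00282 and LINC01125 as protein-coding genes, and LINC00694, LINC01225 and LINC02495 as transcribed pseudogenes. LINC00977, NPPA-AS1 and SPRY4-IT1 were not found by gene ID, so no coordinates are given for them.

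At rest few named lncRNAs differed between the genotypes. In resting HuRKO cells 13 were higher (10.6%) and 16 lower (13.0%), 23.6% in all, while over all listed genes 25.0% were higher and 15.4% lower, 40.5% in all. The median log2 change was 0.13, beside 0.18 over all genes. After activation 51 were higher in HuRKO cells (41.5%) and 46 lower (37.4%), and the shares over all listed genes were 42.2% and 35.4%. The activated split is therefore close to that of the table as a whole. Activation of WT cells raised 64 (52.0%) and lowered 27 (22.0%), with 52.0% and 21.8% over all genes, and activation of HuRKO cells raised 80 (65.0%) and lowered 18 (14.6%), with 58.1% and 18.5%. Median log2 changes were 1.51 for activation in WT (1.42 over all genes) and 2.10 for activation in HuRKO (1.45 over all genes). Changes of at least 4-fold were called for 2 higher (LINC01389 and GATA2-AS1; 1.63%, beside 13.7% of all genes) and 9 lower (7.32%, beside 7.69%) at rest. After activation they were called for 44 higher and 28 lower, and over all genes for 31.7% and 22.3%. By kind, activation of WT cells raised 29 and lowered 19 of the 65 LINC genes and raised 32 and lowered 8 of the 54 antisense genes. In HuRKO cells the counts were 41 and 11 for LINC and 36 and 7 for antisense genes. No test compared these shares, and genes with overlapping spans among them are not independent.

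Level moved with the share called at rest. Among the 62 named lncRNAs with a mean level of at least 20, 32.3% were called at rest, 12 higher and 8 lower, and among the 61 below that level 14.8% were, 1 higher (GATA2-AS1) and 8 lower. Over all 1624 listed genes at a level of at least 20 the share called was 49.9%. The 309 other listed genes that GENCODE annotates as lncRNAs, mostly under clone names, had 23.0% called at rest, and the 1866 protein-coding genes 46.9%. After activation these other lncRNAs were 50.8% higher and 19.7% lower in HuRKO cells, and the protein-coding genes 42.1% and 37.2%. At a mean level of at least 20 the share called at rest was 40.2% of 102 other lncRNAs and 53.0% of 1329 protein-coding genes. After activation 55.9% of these 102 were higher and 23.5% lower in HuRKO cells. For the 1329 protein-coding genes the shares were 42.4% and 42.1%. How much of the differences goes with level was not tested.

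**Figure D1:**
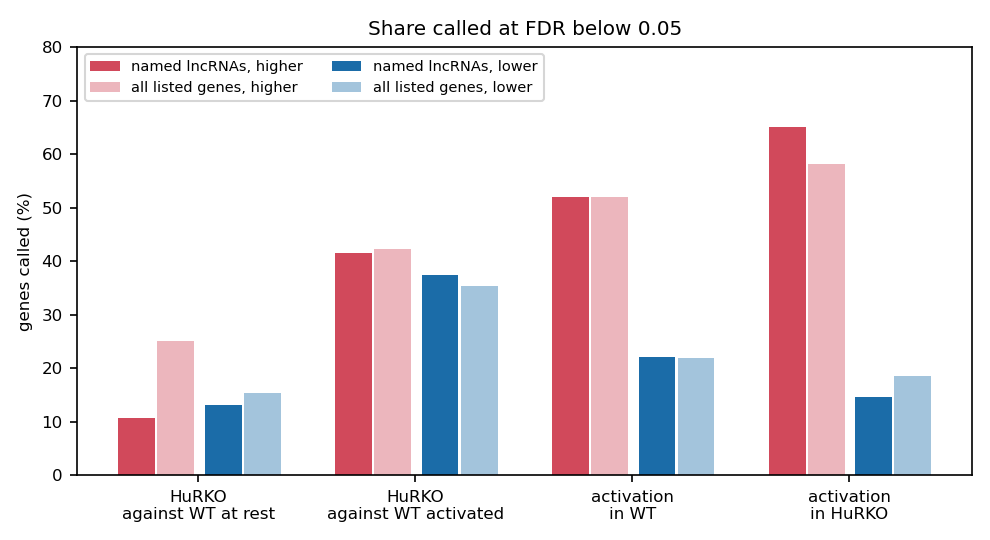
Percent of genes called higher or lower at an FDR below 0.05 in each of the 4 comparisons (bars from 0), for the 123 named lncRNAs and for all 2587 listed genes. At rest the named lncRNAs lie at 10.6% higher and 13.0% lower beside 25.0% and 15.4%, and after activation the bars of both sets are close.

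Of the lncRNAs higher in resting HuRKO cells, LINC01389 (chromosome 1, 47380928 to 47408477) had the largest change among those at a mean level of at least 20. Its level was 5.16 in resting WT, 38.4 in resting HuRKO, 8.01 in activated WT and 51.2 in activated HuRKO cells. The groups thus separated by genotype in both states, with log2 changes in the authors' deposited table of 2.90 (FDR 1.0e-07) and 2.68 (FDR 2.7e-09), while activation itself was not called in either genotype. GATA2-AS1, antisense at the gene of the haematopoietic transcription factor GATA2, was of this kind at a lower level, with 2.06, 23.2, 5.63 and 25.6. Its mean level was below 20, and it was chosen for description after its values were seen. RUNDC3A-AS1 had levels of 16.0, 53.4, 84.7 and 231. It rose with activation in both genotypes and was higher in HuRKO cells in both states, and the authors' deposited table lists log2 changes of 1.74 (FDR 1.7e-07) at rest and 1.45 (FDR 3.5e-11) after activation. UBXN10-AS1 (8.67, 22.9, 54.1 and 206) and PROX1-AS1 (12.6, 32.0, 30.4 and 162) were called higher in the same 4 comparisons as RUNDC3A-AS1. LINC01749 (15.1, 43.3, 3.66 and 43.1) was higher in HuRKO cells in both states. It fell with activation in WT cells, and its change in HuRKO cells was not called (log2 -0.01, FDR 0.99 in the authors' deposited table).

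The largest fall at rest at that level was in PIK3CD-AS2 (chromosome 1, 9672426 to 9687555, minus strand), named for the gene of the lymphocyte PI3-kinase subunit p110 delta. Its level was 86.4 in resting WT, 5.34 in resting HuRKO, 48.4 in activated WT and 10.9 in activated HuRKO cells. It was 16.2-fold lower in HuRKO cells at rest and 4.42-fold lower after activation. The authors' deposited table gives log2 changes of -4.02 (FDR 9.8e-17) and -2.14 (FDR 5.3e-08). PCED1B-AS1 (56.7, 11.2, 164 and 39.4) was also lower in HuRKO cells in both states, with log2 changes of -2.34 (FDR 6.5e-10) and -2.06 (FDR 9.4e-15) in the authors' deposited table. It rose with activation in both genotypes. DPP10-AS1 had levels of 72.6 in resting WT, 18.7 in resting HuRKO, 14.1 in activated WT and 5.47 in activated HuRKO cells and was called lower in all 4 comparisons. PRKCQ-AS1, named for protein kinase C theta, the isoform that relays T-cell receptor signals and responds to PMA, had levels of 697, 401, 1985 and 357. It was lower in resting HuRKO cells and 5.56-fold lower in activated ones. With activation it rose in WT cells (log2 1.51, FDR 1.9e-25 in the authors' deposited table), and its change in HuRKO was not called (log2 -0.17, FDR 0.33).

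Of the 29 lncRNAs called at rest, 19 were called in the same direction after activation (65.5%), 5 in the opposite one (17.2%) and 5 were not called. Over all listed genes called at rest the shares were close to these, with 67.4% in the same direction and 15.2% in the opposite one. These 2 comparisons share no library. LINC00963 and LINC00977 were higher in HuRKO cells at rest and lower after activation. LINC00963 had levels of 17.0, 54.9, 1269 and 649, so that activation raised it 74.8-fold from the lower resting level in WT and 11.8-fold from the higher one in HuRKO. LINC002481 (spelled as in the table), LINC00304 and LINC00539 were lower at rest and higher after activation. LINC00539 had levels of 173 in resting WT, 119 in resting HuRKO, 77.8 in activated WT and 347 in activated HuRKO cells. LINC00304 (15.5, 4.43, 6.29 and 41.8) lies within the span of ACSF3 on the same strand, whose levels were 5118, 5088, 1294 and 6213, and reads of the 2 genes cannot be told apart here. The 5 called at rest only were LINC01120, LINC01226, C21orf62-AS1, LINC01132 and LINC01564.

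**Figure D2:**
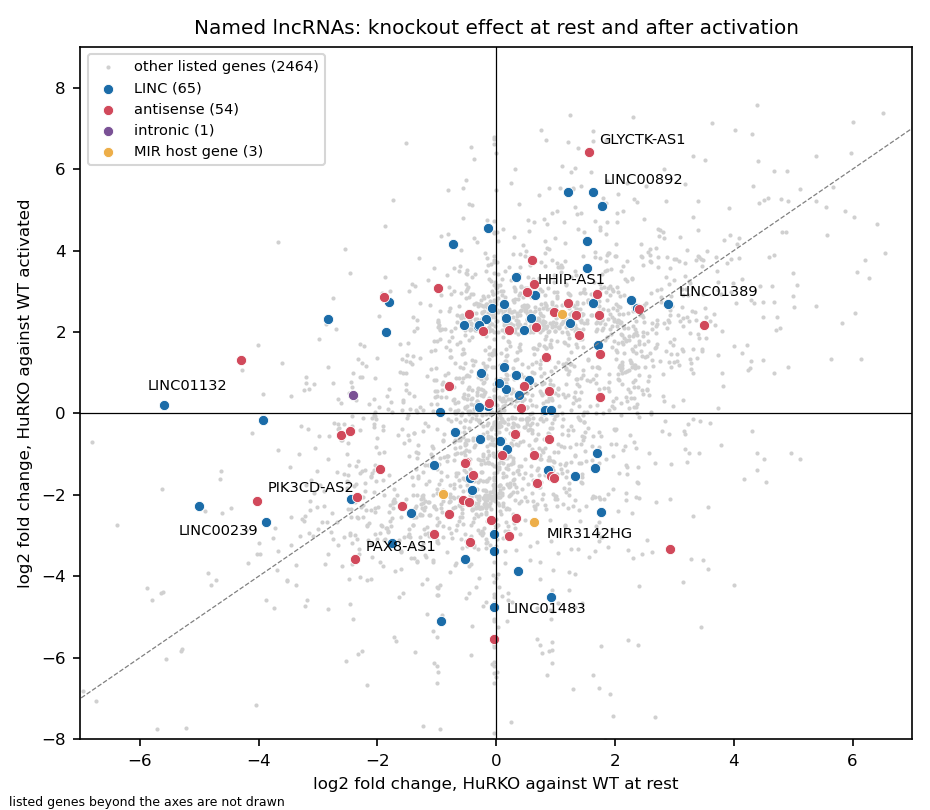
Deposited log2 fold change of HuRKO against WT at rest (x axis) and after activation (y axis); each coloured point is a named lncRNA by kind, grey points are the other 2464 listed genes, and the dashed line marks equal change. Many named lncRNAs lie near 0 on the x axis and far from 0 on the y axis, while PIK3CD-AS2 and LINC01389 lie away from 0 on both.

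Among lncRNAs higher in activated HuRKO cells, LINC00892 (chromosome X, 136639543 to 136642429, plus strand) had the largest change at a mean level of at least 20. Its level was 4.14 in resting WT, 12.8 in resting HuRKO, 2.01 in activated WT and 87.3 in activated HuRKO cells. It was called higher in HuRKO at rest (log2 1.63, FDR 0.035 in the authors' deposited table) and after activation (log2 5.44, FDR 8.1e-14), and after activation it rose in HuRKO cells and was not called in WT (FDR 0.3). LINC01108 had levels of 11.1, 6.70, 6.22 and 110, and LINC01163 of 26.6, 33.8, 19.6 and 201. Both had their highest level in activated HuRKO cells, with log2 changes against activated WT in the authors' deposited table of 4.15 (FDR 1.8e-20) and 3.35 (FDR 1.4e-28). LINC01801 (16.8, 26.4, 15.1 and 113) and HDAC2-AS2 (3.07, 9.99, 8.37 and 63.8), named for a histone deacetylase gene, were likewise called higher in activated HuRKO cells and not at rest. LINC01801 overlaps the lncRNA AC008555.1 (15.1, 41.1, 20.6 and 111) on the same strand, so reads of the 2 cannot be told apart. AC008555.1 was called higher in HuRKO cells at rest as well (log2 1.44, FDR 1.0e-03 in the authors' deposited table). HHIP-AS1 (chromosome 4, 144642922 to 144661357, minus strand) had levels of 597, 856, 184 and 1441. Its 7.82-fold difference after activation (log2 2.97, FDR 3.7e-63 in the authors' deposited table) went with a fall in WT and a rise in HuRKO.

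Among lncRNAs at a mean level of at least 20, LINC01483 (chromosome 17, 69577251 to 69903000, plus strand) had the largest deposited fall in activated HuRKO against activated WT cells. It was below the floor in both resting groups, at 126 in activated WT and at 4.65 in activated HuRKO cells, a 27.1-fold difference (log2 -4.76, FDR 3.3e-19 in the authors' deposited table). LINC01281 (chromosome X, 39304956 to 39327362, minus strand) was below the floor in both resting groups as well. It reached 701 in activated WT and 30.8 in activated HuRKO cells, and the authors' deposited table gives a log2 difference of -4.51 (FDR 1.3e-79). PAX8-AS1 (chromosome 2, 113211522 to 113276581, plus strand), named for a developmental transcription factor gene, was lower in HuRKO cells in both states. Its level was 35.9 in resting WT, 6.88 in resting HuRKO, 1810 in activated WT and 151 in activated HuRKO cells. The fold between genotypes was 5.22 at rest and 12.0 after activation.

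USP2-AS1, PRKAG2-AS1 and VPS9D1-AS1 were also lower in activated HuRKO than in activated WT cells, and unlike the genes above they fell with activation in HuRKO cells. USP2-AS1 had levels of 44.3 in resting WT, 32.5 in resting HuRKO, 35.0 in activated WT and 3.94 in activated HuRKO cells. Its change in WT was not called (log2 -0.34, FDR 0.44 in the authors' deposited table). VPS9D1-AS1 had levels of 571, 539, 292 and 47.0, falling 1.96-fold in WT and 11.5-fold in HuRKO cells. PRKAG2-AS1, named for a regulatory subunit gene of AMP-activated kinase, had levels of 35.0, 40.5, 60.2 and 7.54 and is described again below, since its responses to activation were called in opposite directions.

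**Figure D3:**
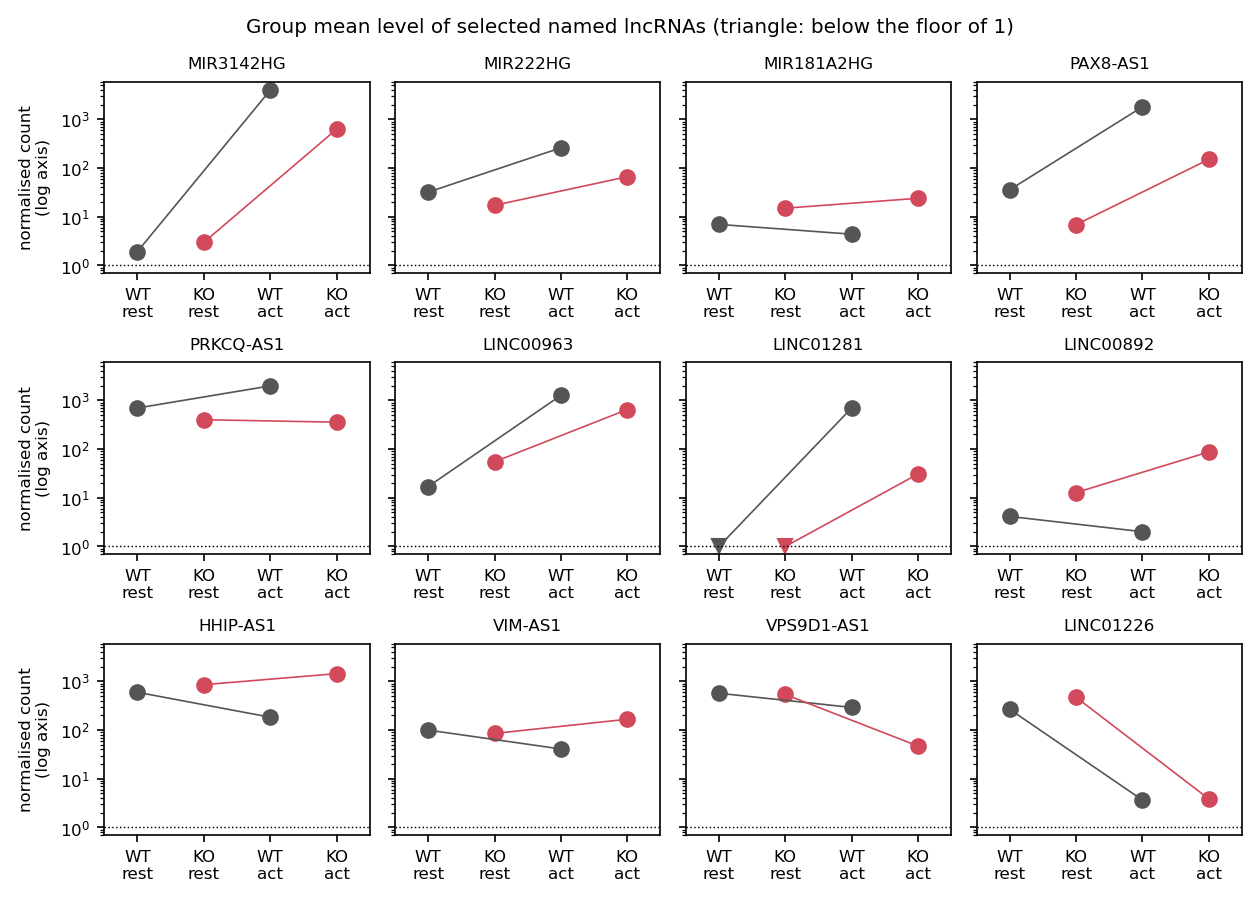
Rebuilt group levels in normalised counts (log axis) of selected named lncRNAs at rest and after activation, in WT (grey) and HuRKO cells (red, KO on the axis). Each point is a group mean without a replicate error, lines join the states of 1 genotype, and triangles mark levels below the floor of 1. MIR3142HG and PAX8-AS1 are highest in activated WT cells, and LINC00892 and HHIP-AS1 in activated HuRKO cells.

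A list of 35 lncRNAs linked to immune cells had 9 members in the table, and it was drawn up with earlier results of these data known. In activated HuRKO against activated WT cells 7 were lower and 2 higher (LINC00892 and MIR181A2HG), with 35.4% and 42.2% of all listed genes. Activation raised 7 in WT and 6 in HuRKO cells, where 52.0% and 58.1% of all listed genes rose, and lowered 0 of the 9 in either by the deposited FDR, where 21.8% and 18.5% fell. The 7 that were lower are the 7 that rose in WT cells, each over 4-fold (log2 2.03 to 11.01). Each thus met the thresholds of the table in activation of WT cells. The counts after activation are therefore tied to the selection and are no result on immune lncRNAs. At rest LINC00892 was higher (25.0% of all genes), and MIR222HG and LINC00239 were lower (15.4%). IL21-AS1, antisense at the gene of the T-helper cytokine interleukin 21, was detected above the floor in activated WT cells only, at 40.3, so that it was at least 40.3-fold higher there than in activated HuRKO cells (log2 -5.54, FDR 2.1e-07 in the authors' deposited table). LINC00944 had 42.7 in activated WT and 4.14 in activated HuRKO cells and was below the floor in both resting groups. LINC00861 (2.62, 3.37, 39.7 and 2.74) and LINC02341 (10.9, 7.55, 187 and 15.8) were likewise high in activated WT cells. For LINC00861 activation was not called in HuRKO (log2 -0.30, FDR 0.76 in the authors' deposited table). LINC00239 fell from 11.8 in resting WT to below the floor in resting HuRKO cells and had 48.1 and 9.94 after activation.

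Among lncRNAs at a mean level of at least 20, the large rises with activation in WT cells included MIR3142HG, described above, LINC01281, LINC01483, LINC00963, LINC00659 and PAX8-AS1. LINC01281 rose at least 701-fold in WT and at least 30.8-fold in HuRKO cells, bounds that cannot be ranked against a measured fold. LINC00659 had levels of 4.18 in resting WT, 10.5 in resting HuRKO, 303 in activated WT and 104 in activated HuRKO cells. LINC01204 (2.11, 1.02, 75.7 and 31.5) and USP30-AS1 (2.10, 4.13, 60.6 and 20.3) also rose in both genotypes and were lower in activated HuRKO than in activated WT cells. At that level the largest rises in HuRKO cells included LINC01146 (2.72, 3.06, 31.5 and 159), DLGAP1-AS2 (5.78, 6.70, 37.6 and 154) and TNRC6C-AS1 (30.7, 42.5, 533 and 854). All 3 rose in WT cells too and were higher in activated HuRKO than in activated WT cells, by 5.06-fold, 4.10-fold and 1.60-fold. TNRC6C-AS1 overlaps TMC6 on the same strand, so its reads cannot be told apart from those of TMC6.

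Falls with activation were steepest at 1 locus on chromosome 1, where LINC01225 (31500085 to 31509648) and LINC01226 (31506226 to 31583306) overlap on the plus strand. LINC01226 had levels of 267 in resting WT, 471 in resting HuRKO, 3.66 in activated WT and 3.86 in activated HuRKO cells. LINC01225, which GENCODE annotates as a transcribed unitary pseudogene, had 102, 149, 1.01 and 1.79. The overlapping entries may count some of the same reads, and the authors' deposited table lists log2 changes for LINC01226 of -6.19 in WT (FDR 1.7e-36) and -6.93 in HuRKO (FDR 3.7e-52). LINC01120 fell 35.0-fold in WT and 36.1-fold in HuRKO cells, from 46.3 and 153 to 1.32 and 4.23. LINC00891 (chromosome X, 71697196 to 71706455) fell from 1074 to 79.7 in WT and from 1205 to 122 in HuRKO cells. LINC00977 fell in both genotypes from different resting levels, 197 to 34.1 in WT and 623 to 13.3 in HuRKO cells. LINC01237 and LINC01238, overlapping on chromosome 2, and LINC01260 also fell in both genotypes and were not called at rest.

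Activation in WT and in HuRKO cells shares no library, so the directions can be set side by side. Both raised 51 lncRNAs (41.5%; 39.7% of all listed genes) and both lowered 15 (12.2%; 11.4%). Opposite calls were made for 8. Of these, 7 fell in WT and rose in HuRKO cells (5.69%; 5.26% of all listed genes): C21orf62-AS1, HHIP-AS1, LINC002481, LINC00304, LINC00539, LINC01307 and VIM-AS1. LINC01307 (10.5, 9.46, 2.69 and 62.8) fell 3.89-fold in WT and rose 6.64-fold in HuRKO cells. LINC002481 had levels of 87.7, 24.2, 18.3 and 73.4, so that the higher genotype changed with the state. C21orf62-AS1 had 13.4, below the floor, 3.99 and 9.88, and its rise in HuRKO was at least 9.88-fold. PRKAG2-AS1 alone rose in WT (log2 0.78, FDR 0.033 in the authors' deposited table) and fell in HuRKO cells (log2 -2.43, FDR 2.0e-08). That is 0.813% of the named lncRNAs, beside 2.32% of all listed genes. The difference between the 2 responses has no deposited test and was not tested.

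**Figure D4:**
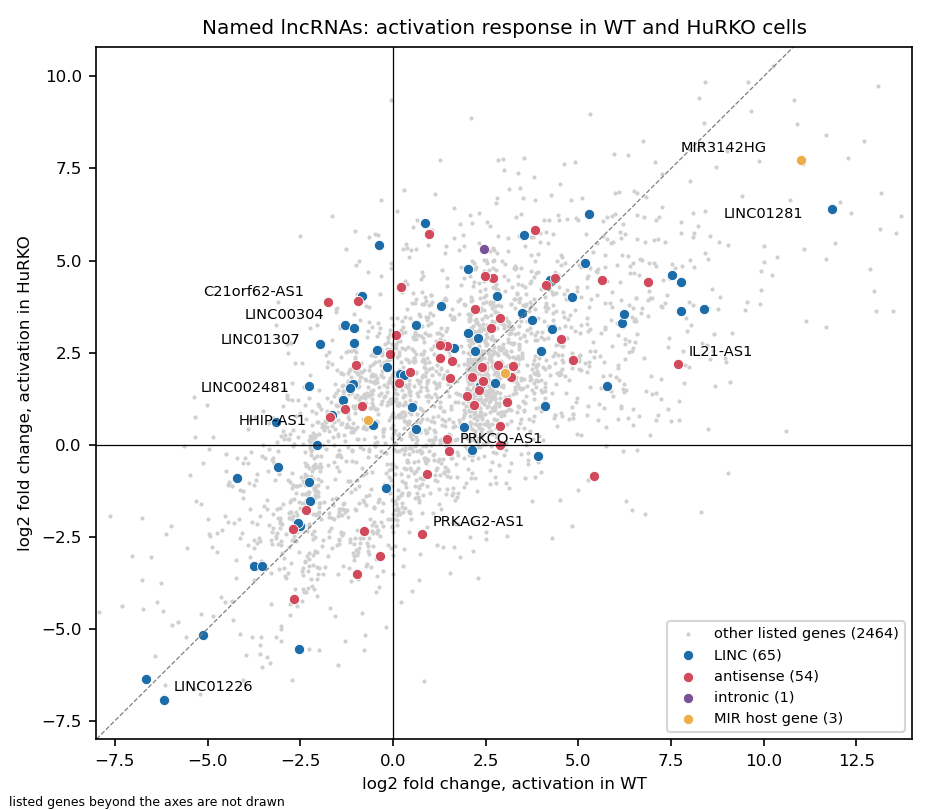
Deposited log2 fold change with activation in WT (x axis) and in HuRKO cells (y axis) for the named lncRNAs by kind, with the other 2464 listed genes in grey; the dashed line marks equal change. MIR3142HG and LINC01281 lie at the upper right, LINC01226 at the lower left, and the labelled antisense and LINC genes at the upper left fell in WT and rose in HuRKO cells.

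The gene that an antisense or intronic lncRNA is named for was itself listed in 13 of 55 cases, and in 12 of these GENCODE places the pair on opposite strands with overlapping spans. The kit was directional, but whether counting used strand is not given in the sources used here, so reads of such a pair cannot be told apart. Where both members of a pair were called, the directions were the same in 1 of 1 pair at rest, 6 of 7 in activated HuRKO against WT, 10 of 11 in WT activation and 9 of 9 in HuRKO activation. SPRY4 enters both activation counts with SPRY4-AS1 and again with SPRY4-IT1. Over all listed genes 52.0% rose and 21.8% fell with activation in WT cells, and 58.1% and 18.5% in HuRKO cells. With activation, unrelated called genes would thus often share a direction too. Between genotypes the shares were more even, with 42.2% of all listed genes higher and 35.4% lower in activated HuRKO cells. At rest 25.0% were higher and 15.4% lower. The counts of pairs were not tested. HHIP, which encodes an inhibitor of hedgehog ligands, had levels of 1171, 1558, 260 and 2250, beside 597, 856, 184 and 1441 for HHIP-AS1. Both fell in WT and were higher in activated HuRKO cells. PAX8 had levels of 2.51, 1.11, 99.3 and 3.29, and like PAX8-AS1 rose in activated WT cells and was lower in activated HuRKO (log2 -4.92, FDR 2.9e-15 in the authors' deposited table). VIM, the intermediate filament gene vimentin, had 9144, 13997, 8646 and 84918 beside 100, 85.4, 40.9 and 167 for VIM-AS1. Both were higher in activated HuRKO cells, but in WT activation VIM-AS1 fell and VIM was not called (log2 -0.08, FDR 0.67 in the authors' deposited table).

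SNAI3-AS1 and SNAI3, a gene of the Snail family of zinc finger repressors, were the pair called in opposite directions. SNAI3-AS1 had levels of 73.5 in resting WT, 91.1 in resting HuRKO, 365 in activated WT and 256 in activated HuRKO cells. SNAI3 had 10.6, 9.58, 2.0 and 28.2. In WT activation the antisense gene rose and SNAI3 fell, and in activated HuRKO against WT the antisense gene was lower (log2 -0.51, FDR 0.0021 in the authors' deposited table) and SNAI3 higher (log2 3.82, FDR 2.8e-06). Both rose with activation in HuRKO cells. PROSER2 (24.9, 113, 63.7 and 16.5) was higher in resting HuRKO cells, where PROSER2-AS1 (3.14, 1.52, 26.3 and 3.38) was not called. ID2, an inhibitor of helix-loop-helix transcription factors, was lower in activated HuRKO than in activated WT cells at 106 against 617, while ID2-AS1 with 7.18 against 14.7 was not called (log2 -1.03, FDR 0.25 in the authors' deposited table). SPRY4, a feedback inhibitor of growth factor signalling, had levels of 142, 38.2, 928 and 745. SPRY4-AS1 (1.06, below the floor, 15.0 and 11.0) and SPRY4-IT1 (1.94, below the floor, 10.6 and 14.5) rose with it in both activations. ATP2C2-AS1, MATN1-AS1, PROX1-AS1, ROR1-AS1 and UBXN10-AS1 each rose in the same activation comparisons as their partners wherever both were called.

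**Figure D5:**
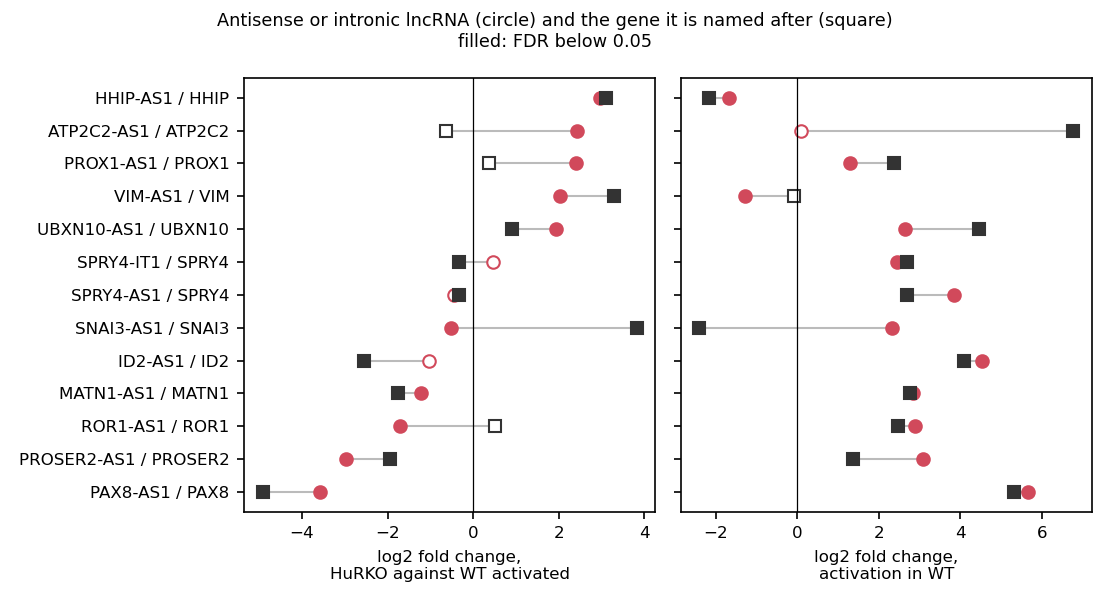
Deposited log2 fold changes of 13 antisense or intronic lncRNAs (red circles) and of the genes they are named after (dark squares), for activated HuRKO against WT (left) and activation in WT (right), with filled symbols for an FDR below 0.05. Most filled pairs lie on the same side of 0, and SNAI3-AS1 and SNAI3 lie on opposite sides in both panels.

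LINC genes carry no partner in their name, so for them the nearest protein-coding gene without overlap in GENCODE was taken, a step added after the data were seen. It was listed for 16. Where both were called, the direction was the same in 2 of 2 pairs at rest, 11 of 12 in activated HuRKO against WT, 12 of 13 in WT activation and 12 of 14 in HuRKO activation. The opposite pairs were LINC00891 with CXorf49 in activated HuRKO against WT, LINC00540 with FGF9 in WT activation, and LINC01483 with MAP2K6 and LINC02132 with IRF8 in HuRKO activation. No test was made of these counts. Each listed neighbour had itself passed the selection of the table. Over all listed genes 52.0% rose and 21.8% fell with activation in WT cells, and 58.1% and 18.5% in HuRKO cells. With activation, unrelated called genes would therefore often share a direction too. In activated HuRKO against WT cells 42.2% of all listed genes were higher and 35.4% lower, a more even split. LINC00892 lies 5764 bases from CD40LG, which encodes the CD40 ligand that T cells present to B cells. CD40LG had levels of 79.8, 275, 133 and 548 and was higher in HuRKO cells at rest (log2 1.79, FDR 2.1e-05 in the authors' deposited table) and after activation (log2 2.04, FDR 8.8e-08), as LINC00892 was. LINC00528 (371, 329, 43.0 and 214) lies 2552 bases from BID, which encodes a pro-apoptotic BCL2 family member and had levels of 2384, 2004, 193 and 347. Both fell with activation in both genotypes and were higher in activated HuRKO than in activated WT cells.

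Distances to other neighbours varied. LINC01307 lies 79624 bases from S1PR1, a receptor that guides lymphocyte exit from lymph nodes, with levels of 66.9, 136, 19.7 and 256. Both fell in WT, rose in HuRKO and were higher in activated HuRKO cells. LINC01686 was below the floor at rest and had 35.3 in activated WT and 4.53 in activated HuRKO cells, and RGS16, a regulator of G-protein signalling 10846 bases away, had 5.75, 57.3, 4149 and 718. LINC01260 lies 4218 bases from ADA, the adenosine deaminase gene, whose levels were 22825, 21068, 913 and 1184. For LINC01483 the neighbour MAP2K6, a kinase that activates p38, had 145, 173, 829 and 33.5. Both were lower in activated HuRKO than in activated WT cells, but with activation in HuRKO MAP2K6 fell (log2 -2.37, FDR 2.3e-09 in the authors' deposited table) and LINC01483 rose (log2 3.67, FDR 0.0071).

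AU-rich pentamers are a known feature of HuR-bound mRNAs, so the last 300 bases of the longest GENCODE transcript were searched for ATTTA on the transcript strand. It was present in 38 of 120 named lncRNAs with a sequence (31.7%), beside 35.2% of all GENCODE lncRNA genes and 43.2% of protein-coding genes. The share was 35.3% among those higher in activated HuRKO cells, 28.9% among those lower and 29.2% among those not called, and these shares were not tested. Among members at a mean level of at least 20, 3 of the 8 largest rises in activated HuRKO against WT cells held the pentamer in this window, and 0 of the 8 largest falls did. The sites of those 3 are shown as 30 bases of transcript sequence from the hg38 annotation, with the first ATTTA in capitals.
LINC00892: ataacacacataATTTActgtgcatcagtc
LINC01163: ttgaccaggactATTTAataaaatatttta
HHIP-AS1: ttttatgaacgtATTTAgtttattgtaaaa
A run of 7 U (TTTTTTT in the annotation) was in 5.00% of the named lncRNAs and in 8.51% of all lncRNA genes. Among named lncRNAs with a sequence, it was in 5 of 51 higher in activated HuRKO cells (9.80%). It was in 1 of 45 lower there (2.22%) and in 0 of 24 not called. The counts with this run are small, and their split by direction was not tested. A match is a string of letters and not a measured binding site.

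Markers of cell types were read beside the cell type label. Only genes that met the thresholds of the table are listed, so a marker not listed may be unchanged or absent. Which markers are listed can therefore not check the label. Of 8 T-cell markers CD2, CD7, CD28 and TRAC were listed, and each had at least 380 normalised counts in every group. At rest 3 of these 4 were lower in HuRKO than in WT cells: TRAC (3510 to 552), CD2 (1760 to 380) and CD7 (3890 to 2425). CD28 was not called at rest. After activation CD28 was higher in HuRKO than in WT cells (log2 2.75 in the authors' deposited table). CD2 (log2 -1.71) and TRAC (log2 -0.38) were then lower, and CD7 was not called. Of 18 markers of B cells, monocytes, erythroid cells, epithelium and fibroblasts 5 were listed (CD79B, ITGAM, CSF1R, HBA1 and COL1A1), with levels from below the floor (CSF1R and ITGAM in resting WT) to 210 (COL1A1 in activated WT). Of these, CSF1R was not called at rest, and higher in resting HuRKO cells were CD79B (1.41 to 10.1), ITGAM (from below the floor to 9.33), HBA1 (1.63 to 27.8) and COL1A1 (29.3 to 79.8). In activated HuRKO against activated WT cells CSF1R and HBA1 were higher, COL1A1 was lower, and CD79B and ITGAM were not called. The part of these marker differences in the lncRNA results was not tested.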

How the data were processed

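Poly(A) RNA was sequenced from 12 libraries in 4 groups of 3, with a directional NEBNext kit per the labels' protocols. TopHat and Bowtie2 with hg38 are named in the submitters' processing notes, while versions, counter, strand setting and test are not stated in any source at hand. The deposited values are the authors' own comparisons of a selection of genes. Per the file headers these are a baseMean, read here as a deposited signal (the mean normalised count of the libraries), and a log fold change with an FDR, a p-value adjusted by the authors, for 4 comparisons. The deposited changes are taken as log2. Base 2 is an inference: resting WT levels below the floor gather in a narrow window to 30.6% on base 2, 5.34% on base e and 2.03% on base 10. There were 0 columns of values per sample left unmapped, and the depth of each library is unknown, so intervals could not be given.

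Group levels were computed from the baseMean and the changes, assuming the baseMean is the mean of equal groups. The floor was 1 normalised count per group, or 3 counts over its libraries, and covers counting error only. Calls use an FDR below 0.05, with no test added. The arithmetic of the levels was checked on simulated levels without error. That check cannot show whether the deposited baseMean is the mean of equal groups. Named genes are, in each comparison, the 8 largest rises and 8 largest falls among called members with a mean level of at least 20, every host gene, every member whose name partner is listed, every member called in opposite directions by the 2 activations, and the listed immune lncRNAs. Members and lists were chosen with earlier results of these data known. Coordinates and transcript ends are from GENCODE release 29 (GRCh38, the build of hg38), microRNAs from RefSeq. Python 3.11.15, pandas 2.3.3, numpy 2.4.6 and matplotlib 3.10.9 were used. Alternatives were an FDR of 0.01, minimum changes of 2-fold and 4-fold, a mean level of at least 20, LINC and MIR names alone, a floor of 3, overlapping partners only and no chromosome Y genes.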

Additional observations from a re-analysis of the deposited data

How the results depend on the processing

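Requiring at least 4-fold, the size by which the table was selected, left 1.63% of the named lncRNAs higher and 7.32% lower at rest, against 10.6% and 13.0% at any size, and 22.8% lower in activated HuRKO cells against 37.4%. At a mean level of at least 20 the share higher at rest was 19.4%, and the share lowered by activation in HuRKO cells was 22.6% against 14.6%. With a floor of 3 normalised counts, 63 members instead of 27 had a group below it, so more of their folds would be lower bounds. The shares stayed within 1.5 times the reported ones at an FDR below 0.01, at a minimum of 2-fold and with LINC and MIR host gene names alone. Leaving out chromosome Y removed no member. Pairs with overlapping spans had the same counts of opposite directions as pairs by name. No paired analysis was possible because the table holds comparisons between groups and no value per library. For the same reason no library could be left out, no other normalisation or filter on counts could be run, and a library that decides a result could not be seen. Depth per library is unknown, and members near the floor had few counts.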

Other observations

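Other well-known lncRNAs lie outside the naming rule. Of a list of 50, 9 were in the authors' deposited table, where 5 were higher and 4 lower in activated HuRKO against WT cells, beside 42.2% and 35.4% of all listed genes. CASC15 had levels of 993 in resting WT, 2096 in resting HuRKO, 1921 in activated WT and 23160 in activated HuRKO cells (log2 3.59 after activation, FDR 1.8e-131 in the authors' deposited table). It was thus higher in HuRKO cells in both states. LUCAT1 (46.9, 66.8, 22.9 and 139 in the same order) fell with activation in WT and rose in HuRKO cells. PVT1, transcribed next to MYC, had 78.8, 65.2, 136 and 17.8, and SNHG3, a small nucleolar RNA host gene, had 2546, 2744, 1627 and 353. Both were lower in activated HuRKO than in activated WT cells, and not called at rest. RMST and PLUT were below the floor in resting WT and at 17.9 and 12.8 in resting HuRKO cells. HCP5 was higher in activated HuRKO than in activated WT cells, at 113 against 9.24. The remaining listed genes, TTTY14 and TTTY15, lie on chromosome Y and were below the floor in both HuRKO groups.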
